A study of Homo sapiens with 12 samples.

Results

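The 9 genes described here are ligands of the epidermal growth factor (EGF) family and the ERBB receptors that bind them, followed in HK-2 cells, an established line of human proximal tubule epithelium. They were matched by symbol to the Ensembl identifiers of the count tables: the ligands AREG, EREG, HBEGF, TGFA, BTC and NRG1 and the receptors EGFR, ERBB2 and ERBB3. All 9 of 9 were found among 40649 genes, and all 9 were among the 19268 genes with enough counts to be tested. The data are gene-level counts of polyadenylated RNA from 12 libraries that fall into 3 groups of 4. The libraries labelled YH carry a Yap1 knockdown and were exposed to hydrogen peroxide, an oxidant, at 150 µM for 48 h. The libraries labelled H2O2 have the genotype ShNC, the control of the knockdown, and had the same exposure. The libraries labelled ShNC have that genotype and no exposure. The knockdown was not measured here in cells without the oxidant, and the labels do not state the hairpin sequence, the number of clones or whether separate cultures gave the replicates. All p-values are therefore relative to a spread between libraries that may be technical. The labels name the cell line while the extraction protocol speaks of kidney tissue.

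EGF-family ligands are made as membrane-anchored precursors that metalloproteases cut free, and they act on the cell that made them or on its neighbours. AREG and TGFA bind EGFR, while EREG, HBEGF and BTC bind EGFR and ERBB4, and NRG1 binds ERBB3 and ERBB4. ERBB2 has no known ligand of its own and ERBB3 has little kinase activity, so both signal as partners of other receptors, and in the proximal tubule EGFR signalling is known for its role in repair after injury.

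YAP1, the transcriptional co-activator that the knockdown names, had 131, 135, 111 and 136 CPM (counts scaled to library size, with TMM factors) in the libraries labelled YH. It had 155, 151, 156 and 164 CPM in those labelled H2O2 and 136, 130, 140 and 124 CPM in those labelled ShNC. The libraries labelled YH lay below all 4 labelled H2O2 and overlapped those labelled ShNC. The log2 fold change was -0.29 ± 0.07 (SE) for YH against H2O2 (edgeR adjusted p = 0.00346) and -0.05 ± 0.07 for YH against ShNC (adjusted p = 0.636). For H2O2 against ShNC it was 0.24 ± 0.07 (adjusted p = 0.0104). The YAP1 mRNA therefore did not set the libraries labelled YH below the unexposed ones, and every direction given for them rests on their label.

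Libraries held 30789997 to 46582873 counts, so that 3 counts, taken as the floor of detection, were 0.0644 to 0.0974 CPM. ShNC replicate 4 and YH replicate 3 stood apart, with 13.9% and 11.3% of counts on mitochondrial genes against 4.54% to 5.64% in the other 10 libraries. Calls that change without them are named beside the result. Of 12 epithelial and proximal tubule markers, 8 were above 1 CPM in every library labelled YH and 7 in every library of either other group. The proximal tubule markers LRP2, CUBN, ANPEP and AQP1 averaged at most 0.288 CPM in any group. LRP2 was at or below 3 counts in the H2O2 and ShNC libraries, and ANPEP in the H2O2 libraries. The summed level of the 12 was 1144 to 1217 CPM in YH, 1124 to 1162 in H2O2 and 1161 to 1267 in ShNC. Most of that sum is KRT8, KRT18 and PAX8, and single markers moved within it: of 9 tested, 2 rose and 4 fell in H2O2 against ShNC, and 4 rose and 1 fell in YH against H2O2. Those that fell were CDH1 (E-cadherin, -2.26 ± 0.22 on the log2 scale), SLC34A1 (a phosphate transporter, -2.27 ± 0.31), PAX8 (-0.80 ± 0.08) and EPCAM (-0.40 ± 0.06), and the same 4 rose in YH against H2O2, by 1.36, 2.67, 0.39 and 0.37. SLC34A1 was low throughout, averaging 1.61 CPM in YH, 0.245 in H2O2 and 1.22 in ShNC. The 2 that rose in H2O2 against ShNC were PAX2 (1.73 ± 0.28) and KRT18 (0.58 ± 0.06). Neither passed in YH against H2O2, where KRT8 was the 1 that fell (-0.25 ± 0.09). Of 6 fibroblast markers, 4, 4 and 3 were above 1 CPM in every library labelled YH, H2O2 and ShNC. Their sum was 143 to 172 CPM in YH, 236 to 255 in H2O2 and 110.0 to 113 in ShNC, with PDGFRA and COL3A1 at or below 3 counts in the YH and ShNC libraries. LUM made up most of it, at a mean of 149 CPM in YH, 217 in H2O2 and 98.8 in ShNC. Of the 4 tested, 3 rose and 1 fell in H2O2 against ShNC. LUM, COL1A1 and DCN rose by 1.13 ± 0.07, 1.41 ± 0.12 and 1.43 ± 0.24 on the log2 scale. PDGFRB fell by 0.72 (SE 0.18, adjusted p = 0.00391). In YH against H2O2 LUM and COL1A1 fell, by 0.54 (SE 0.07) and 1.39 (SE 0.12), and DCN and PDGFRB did not pass. The 5 endothelial markers summed to at most 0.481 CPM, and the 6 leukocyte markers to at most 1.92 CPM with PTPRC, CD3E and MS4A1 at or below 3 counts throughout. The part of these marker levels in the results below was not tested. In such bulk samples a lower value can come from fewer cells that make a transcript or from less of it per cell, and these cannot be told apart.

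Of the 9 genes, 3 rose (TGFA, HBEGF and NRG1) and 3 fell (AREG, EGFR and ERBB3) in H2O2 against ShNC, beside 46.6% of all tested genes called in either direction, 23.9% higher and 22.6% lower. The median log2 fold change over the 9 was -0.11, against 0.00 over all tested genes. In YH against H2O2, 3 rose (AREG, NRG1 and ERBB3) and 2 fell (TGFA and ERBB2), beside 43.0% of all genes, 22.0% higher and 21.0% lower, with a median of 0.15 against 0.00. In YH against ShNC, 2 rose (HBEGF and NRG1) and 1 fell (AREG), beside 32.5% of all genes, 17.4% higher and 15.1% lower, with a median of -0.01 against 0.00. The last count is near the share in all genes, and the other counts depend on the processing. A further fit removed the median log2 CPM shift of the 50 neighbouring genes in each library. There TGFA and EGFR were not called in H2O2 against ShNC (adjusted p = 0.116 and 0.0793). In YH against H2O2 TGFA and NRG1 were not called (0.0928 and 0.11), while HBEGF was (0.0253). Of the 19268 tested genes 8369 and 7589 were called there in these comparisons. The size of single changes carries more than their number. The groups did not overlap in CPM for 6 of the 9 genes in H2O2 against ShNC (48.0% of all genes), for 4 in YH against H2O2 (45.2%) and for 3 in YH against ShNC (29.7%). These comparisons share libraries, so they are not independent of one another.

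**Figure D1:**
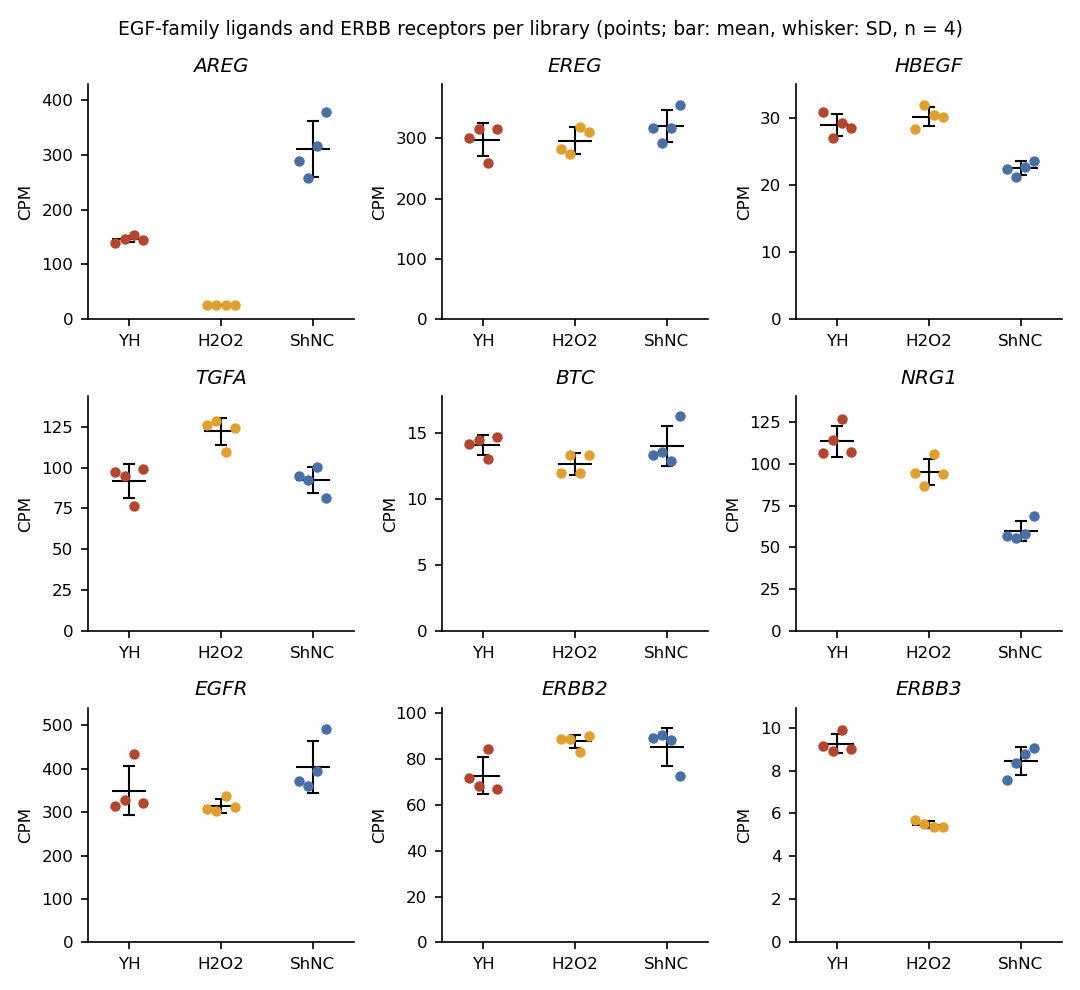
TMM-scaled CPM of the 9 genes in each library (points), with the group mean (bar) and SD (whisker, n = 4), on axes of CPM, for the libraries labelled YH, H2O2 and ShNC from left to right. AREG separates the 3 groups without overlap, while EREG and BTC lie in the same range in all 3.

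AREG (amphiregulin, ENSG00000109321), an EGFR ligand made by many epithelia and known as a YAP1-dependent gene in other cells, changed by far more than any other of the 9 in both comparisons with the H2O2 libraries. It lies on the forward strand of chromosome 4 at 74445134 to 74455009 (GRCh38, GENCODE 29), beside the genes of 2 other ligands. EREG (epiregulin, ENSG00000124882) starts 80.0 kb before it at 74365143 to 74388751 on the same strand, and BTC (betacellulin, ENSG00000174808) starts 350 kb after it on the reverse strand at 74744759 to 74794686. Because AREG changed while EREG and BTC passed in no comparison, the promoters of all 3 are shown, each from 250 bases before to 50 after the start in RefSeq (GRCh38.p14), 5′ to 3′ on the gene's strand, with motif matches in capitals. The windows are chr4:74444886-74445185 (plus strand) for AREG, chr4:74364895-74365194 (plus strand) for EREG and chr4:74794474-74794773 (minus strand) for BTC.
AREG promoter: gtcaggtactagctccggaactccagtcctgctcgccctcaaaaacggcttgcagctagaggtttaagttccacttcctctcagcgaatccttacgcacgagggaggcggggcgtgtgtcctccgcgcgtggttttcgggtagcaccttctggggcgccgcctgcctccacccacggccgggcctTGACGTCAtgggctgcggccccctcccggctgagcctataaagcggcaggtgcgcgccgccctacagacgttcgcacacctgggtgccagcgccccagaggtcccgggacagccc
EREG promoter: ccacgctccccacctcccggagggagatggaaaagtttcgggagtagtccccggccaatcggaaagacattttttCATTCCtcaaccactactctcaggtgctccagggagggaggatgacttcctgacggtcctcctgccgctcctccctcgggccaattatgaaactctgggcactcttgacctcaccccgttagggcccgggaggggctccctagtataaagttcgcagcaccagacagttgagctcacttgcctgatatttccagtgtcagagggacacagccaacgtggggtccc
BTC promoter: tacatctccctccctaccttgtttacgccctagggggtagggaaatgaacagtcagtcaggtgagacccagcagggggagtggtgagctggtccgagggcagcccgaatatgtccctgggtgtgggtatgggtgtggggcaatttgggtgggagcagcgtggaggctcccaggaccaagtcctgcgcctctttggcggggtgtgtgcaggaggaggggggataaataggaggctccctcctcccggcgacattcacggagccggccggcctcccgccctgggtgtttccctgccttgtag
The motifs searched, on both strands, were CATTCC for TEAD, the DNA-binding partner of YAP1, TGANTCA for AP-1, TGACGTCA for the cyclic AMP response element (CRE) and TGACNNNGC for the antioxidant response element. The AREG window holds 1 CRE match, 65 to 58 bases before the start, as do 1.85% of the 35116 RefSeq promoter windows. The EREG window holds 1 TEAD match, 175 to 170 bases before the start, as do 14.0% of windows, and the BTC window holds none of these letters. AP-1 letters occur in 7.71% of all windows and those of the antioxidant element in 13.3%. No match overlapped another, and a match describes letters, not a site in use. Of the 9 genes 7 have a window in that table. Among those not printed, 1 of the windows of EGFR holds 1 TEAD and 2 AP-1 matches, that of ERBB2 holds 1 AP-1 match, and those of HBEGF and TGFA hold none.

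The AREG level was 139.7, 147, 153 and 145 CPM in the libraries labelled YH. It was 26.0, 26.2, 26.2 and 27.0 CPM in those labelled H2O2 and 289, 258, 315 and 378 CPM in those labelled ShNC. No library of any group overlapped another group, with H2O2 lowest, YH between and ShNC highest, and the spread within H2O2 was about 1 CPM. AREG was 11.8-fold lower in H2O2 than in ShNC, a log2 fold change of -3.56 ± 0.10 (adjusted p = 4.83e-13), which ranked 100 from the lowest of the 19268 tested genes. In YH against H2O2 it was 5.55-fold higher (log2 2.47 ± 0.10, adjusted p = 3.51e-11). The libraries labelled YH remained below those labelled ShNC, by a log2 fold change of -1.08 ± 0.09 (adjusted p = 2.89e-07), close in size to that of NRG1 (0.92 ± 0.08). The epithelial markers CDH1, SLC34A1, PAX8 and EPCAM fell and rose in the same 2 comparisons with H2O2, whereas PAX2 and KRT18 rose in H2O2 against ShNC. The part of these markers in the AREG values was not tested.

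EREG, by contrast, was high and level. It had 301, 316, 259 and 315 CPM in the libraries labelled YH, 281, 273, 318 and 311 CPM in those labelled H2O2, and 316, 291, 317 and 355 CPM in those labelled ShNC. The groups overlapped in each comparison. The log2 fold change of EREG was -0.11 (95% interval -0.28 to 0.06, adjusted p = 0.263) in H2O2 against ShNC, 0.01 (-0.16 to 0.18, 0.945) in YH against H2O2, and -0.10 (-0.27 to 0.06, 0.347) in YH against ShNC. These intervals exclude a change as large as that of AREG in any comparison, although a p above the threshold does not show that EREG levels were equal.

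The ratio of AREG to EREG, each taken per kilobase of exon, put the pair on 1 scale within each library. It was 1.61, 1.62, 2.06 and 1.60 in the libraries labelled YH, 0.320, 0.333, 0.286 and 0.301 in those labelled H2O2, and 3.17, 3.07, 3.44 and 3.69 in those labelled ShNC. AREG thus exceeded EREG per length in all 8 libraries labelled YH and ShNC and was below it in all 4 labelled H2O2. The log2 ratio differed by -3.43 for H2O2 against ShNC, by 2.47 for YH against H2O2 and by -0.96 for YH against ShNC. Each had an exact two-sided permutation p of 0.0286, also 0.0286 after Benjamini-Hochberg adjustment over the 3, which is the smallest that 4 against 4 libraries allow. AREG alone already separated the 3 groups while EREG was level, so these p-values add no support beyond the AREG values.

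BTC, a ligand of EGFR and ERBB4, was low and level, at 13.0 to 14.8 CPM in the libraries labelled YH, 11.95 to 13.4 in those labelled H2O2 and 12.9 to 16.3 in those labelled ShNC, ranges that overlap. None of its comparisons passed, with log2 fold changes of -0.15 ± 0.09 in H2O2 against ShNC (adjusted p = 0.206), 0.16 ± 0.09 in YH against H2O2 (0.188) and 0.01 ± 0.09 in YH against ShNC (0.953). With ShNC replicate 4 and YH replicate 3 left out, YH against H2O2 passed at 0.19 (adjusted p = 0.0272).

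Other tested genes within 500 kb of the 3 ligands also moved in different directions. CXCL5, a neutrophil-attracting chemokine, averaged 11.8 CPM in YH, 1.96 in H2O2 and 9.76 in ShNC, and fell by 2.32 on the log2 scale in H2O2 against ShNC (SE 0.16, adjusted p = 7.2e-09) and was 2.59 ± 0.16 higher in YH against H2O2 (3.95e-09). Its neighbour CXCL3 rose in H2O2 against ShNC, by 1.53 ± 0.10 (adjusted p = 5.03e-09). CXCL2, of the same chemokine family, fell in H2O2 against ShNC by 0.56 (SE 0.07, adjusted p = 9.21e-06) and was lower again in YH against H2O2, at -0.31 ± 0.07 (0.00214). On the far side PARM1, which averaged 1.20 CPM in YH, 1.87 in H2O2 and 0.973 in ShNC, rose by 0.93 ± 0.22 in H2O2 against ShNC (adjusted p = 0.00253).

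**Figure D2:**
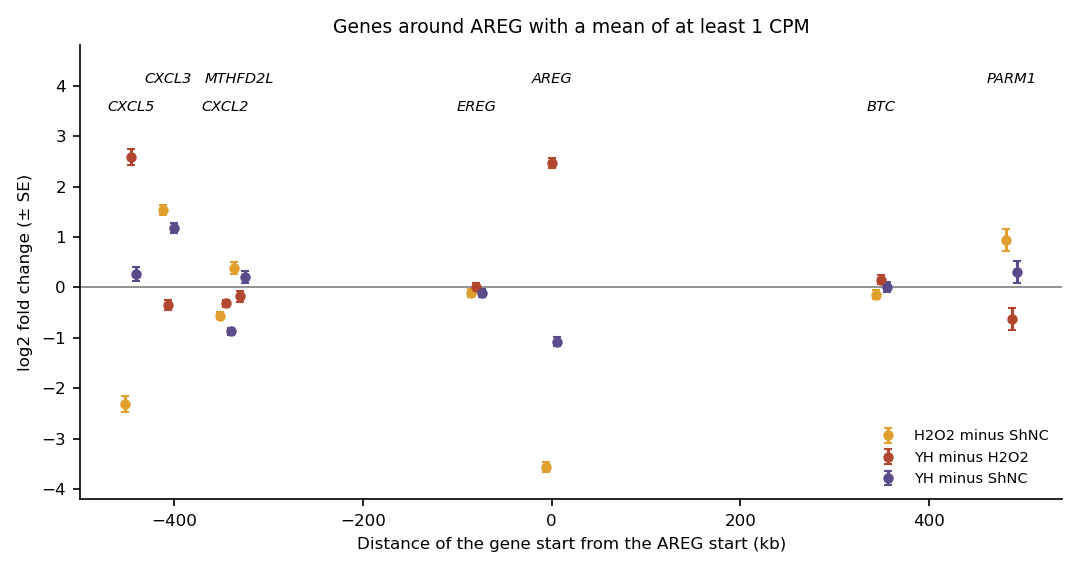
Log2 fold changes (with SE bars) of the tested genes around AREG on chromosome 4 with a mean of at least 1 CPM, against the distance of their start from that of AREG in kb, for YH against H2O2, YH against ShNC and H2O2 against ShNC. AREG and CXCL5 fall far below 0 in H2O2 against ShNC while EREG and BTC stay near it.

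TGFA (transforming growth factor alpha, ENSG00000163235, chromosome 2, 70447280 to 70554193, reverse strand), a high-affinity EGFR ligand, was higher in the oxidant-exposed control cells. Its level was 97.1, 94.8, 76.2 and 98.9 CPM in the libraries labelled YH, 126, 128, 109.9 and 125 CPM in those labelled H2O2, and 95.1, 92.7, 100.2 and 81.5 CPM in those labelled ShNC. All 4 libraries labelled H2O2 were above the 8 others, and YH overlapped ShNC. TGFA rose by 0.40 ± 0.09 on the log2 scale in H2O2 against ShNC (adjusted p = 0.00132), was -0.41 ± 0.09 in YH against H2O2 (0.00127), and was -0.01 ± 0.09 in YH against ShNC (0.951). The fit was repeated to take account of shifts shared by genes next to one another on a chromosome. With the median log2 CPM shift of the 50 neighbouring genes removed in each library before the fit, the first 2 values became 0.18 (adjusted p = 0.116) and -0.19 (0.0928).

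HBEGF (heparin-binding EGF-like growth factor, ENSG00000113070, chromosome 5, 140332843 to 140346631, reverse strand), known as an early ligand in injured tubules, was higher in both exposed groups. It had 31.0, 27.1, 29.3 and 28.6 CPM in the libraries labelled YH, 28.4, 31.9, 30.6 and 30.1 CPM in those labelled H2O2, and 22.5, 21.2, 22.8 and 23.7 CPM in those labelled ShNC. Every exposed library was above every unexposed one, and the exposed groups overlapped. HBEGF rose by 0.42 ± 0.07 in H2O2 against ShNC (adjusted p = 0.000114) and by 0.36 ± 0.07 in YH against ShNC (0.000872), and was -0.06 ± 0.07 in YH against H2O2 (0.507). With the neighbours' shift removed the last value was -0.21 and passed (adjusted p = 0.0253).

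NRG1 (neuregulin 1, ENSG00000157168, chromosome 8), a ligand of ERBB3 and ERBB4, was the only one of the 9 genes to rise in YH against both other groups. It had 106, 114, 127 and 107 CPM in the libraries labelled YH, 94.8, 87.1, 106 and 93.8 CPM in those labelled H2O2, and 57.0, 55.5, 58.2 and 69.0 CPM in those labelled ShNC. The unexposed libraries were all lowest, and YH replicate 1, at 106.4 CPM, lay only just above H2O2 replicate 3, at 105.9 CPM. NRG1 rose by 0.67 ± 0.08 in H2O2 against ShNC (adjusted p = 8.32e-06) and by 0.92 ± 0.08 in YH against ShNC (8.07e-07). Its rise of 0.25 ± 0.08 in YH against H2O2 (adjusted p = 0.0234) was lost without H2O2 replicate 1, 2 or 4 (0.0553, 0.085 and 0.0595), without YH replicate 3 (0.0564), and at 0.14 with the neighbours' shift removed (0.11).

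Taken per kilobase of exon, the ligand pool itself changed in make-up. Summed over the 11 ligands of the family, it was 185 ± 4.31 CPM per kb in YH, 116 ± 3.33 in H2O2 and 282 ± 35.9 in ShNC (SD, n = 4 each). AREG made up 47.9% ± 2.47 of it in YH, 13.8% ± 0.25 in H2O2 and 66.5% ± 2.44 in ShNC. EREG made up 28.0% in YH, 44.5% in H2O2 and 19.97% in ShNC, and was the largest ligand only in H2O2. TGFA made up 9.96% in YH, 21.2% in H2O2 and 6.72% in ShNC. NRG1, HBEGF and BTC held 5.42%, 5.19% and 2.70% in YH, 7.25%, 8.64% and 3.88% in H2O2, and 1.88%, 2.67% and 1.78% in ShNC. These are shares of mRNA per length of the union of annotated exons, which is longer than most single transcripts and lowers the long genes, so they do not give amounts of ligand protein.

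**Figure D3:**
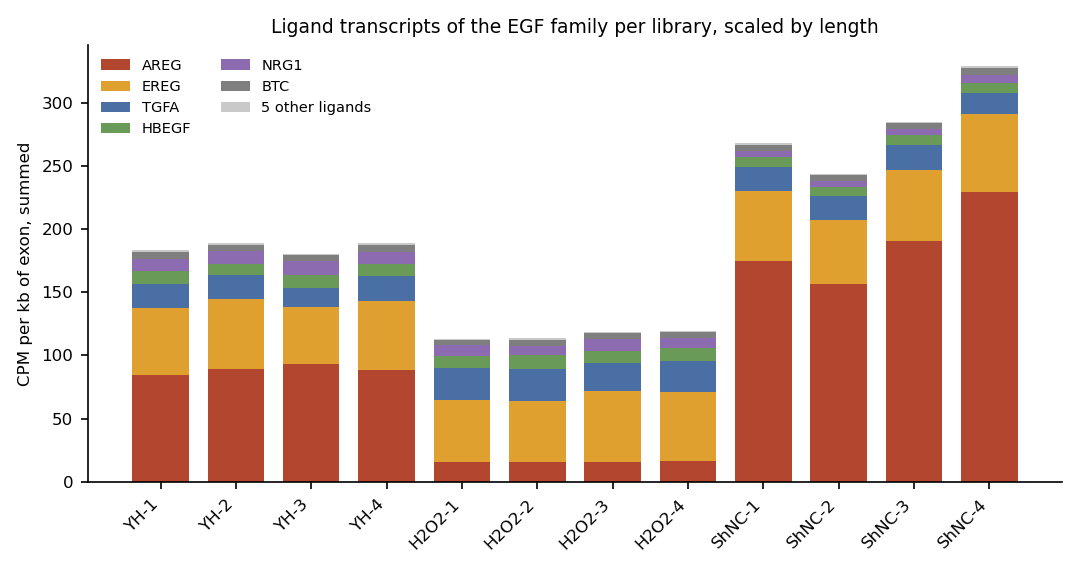
CPM per kb of exon of the EGF-family ligands, stacked, in each library labelled YH, H2O2 and ShNC. AREG is the largest layer in all 8 libraries labelled YH and ShNC, and EREG in all 4 labelled H2O2.

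Ordered by level per kilobase, the unexposed cells had AREG (188 ± 31.0 CPM per kb), EREG (56.0 ± 4.6), EGFR (32.3 ± 4.77) and TGFA (18.6 ± 1.59) first, each range clear of the next. ERBB2 (8.24 ± 0.81) and HBEGF (7.47 ± 0.34) overlapped, as did NRG1 (5.29 ± 0.54) and BTC (4.98 ± 0.54), and ERBB3 was last at 0.93 ± 0.07. The libraries labelled H2O2 began with EREG (51.8 ± 3.84), then EGFR (25.2 ± 1.28) and TGFA (24.6 ± 1.68), which overlapped, with AREG next at 15.99 ± 0.26. Next came HBEGF (10.0 ± 0.47), then ERBB2 (8.48 ± 0.29) and NRG1 (8.42 ± 0.69), which overlapped, BTC (4.50 ± 0.29) and ERBB3 (0.61 ± 0.02). In the libraries labelled YH the order was AREG (88.8 ± 3.42), EREG (52.1 ± 4.67), EGFR (28.0 ± 4.55) and TGFA (18.5 ± 2.11), followed by NRG1 (10.0 ± 0.82) and HBEGF (9.61 ± 0.54), which overlapped, ERBB2 (7.04 ± 0.78), BTC (5.01 ± 0.27) and ERBB3 (1.02 ± 0.05).

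Of the 6 further members of the family, 4 had enough counts to be tested. NRG3, a neuregulin that binds ERBB4, had 118, 91, 108 and 133 counts in the libraries labelled YH, which is 3.07, 2.54, 3.09 and 2.83 CPM. It had 11, 9, 3 and 10 counts in those labelled H2O2 and 9, 8, 10 and 10 in those labelled ShNC. All 4 libraries labelled YH were above the 8 others at a level that remained low. The log2 fold change of NRG3 was 3.75 ± 0.25 in YH against H2O2 (adjusted p = 9.71e-09) and 3.61 ± 0.24 in YH against ShNC (2.94e-08), where it ranked 6 from the highest of all tested genes, and -0.14 ± 0.31 in H2O2 against ShNC (0.795).

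EGF itself, the ligand that names the family, was at 3.00 to 5.25 CPM in YH, 3.38 to 3.77 in H2O2 and 5.56 to 6.62 in ShNC. It fell by 0.75 (SE 0.15) on the log2 scale in H2O2 against ShNC (adjusted p = 0.000705) and by 0.49 (SE 0.15) in YH against ShNC (0.0196), and was 0.26 ± 0.15 in YH against H2O2 (0.184). The last value passed with ShNC replicate 4 and YH replicate 3 left out (0.40, adjusted p = 0.00668) and without YH replicate 3 (0.0146), and YH against ShNC was lost without ShNC replicate 2 (0.0575) or YH replicate 2 (0.0513). EPGN, which binds EGFR, and NRG4, which binds ERBB4, had at most 24 counts in a library and passed in no comparison. NRG2, a further neuregulin, and the receptor ERBB4 had 0 to 11 counts per library and were not tested.

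**Figure D4:**
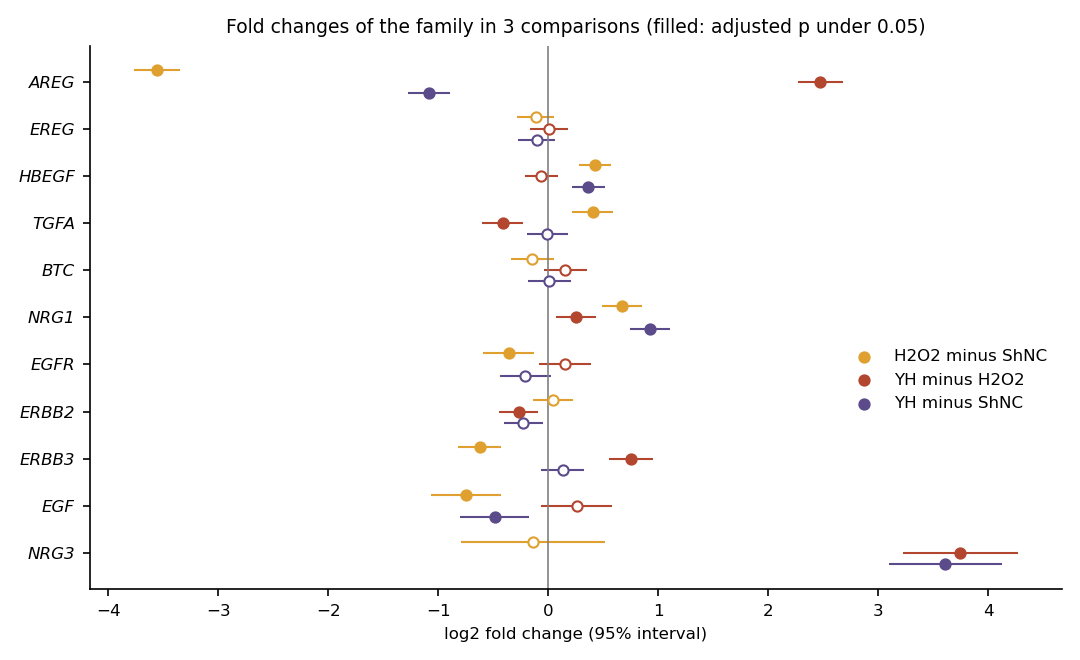
Log2 fold changes (edgeR, with 95% intervals) of the 9 genes, EGF and NRG3 in YH against H2O2, YH against ShNC and H2O2 against ShNC, filled where the adjusted p was below 0.05. AREG and NRG3 have changes larger than 2 in size, and every other gene lies within 1 of 0.

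Among the receptors, EGFR (ENSG00000146648, chromosome 7, 55019021 to 55211628, forward strand), which binds most of these ligands, was somewhat lower in the exposed control cells. It had 315, 329, 435 and 321 CPM in the libraries labelled YH, 306, 302, 338 and 313 CPM in those labelled H2O2, and 371, 359.9, 396 and 491 CPM in those labelled ShNC. The libraries labelled H2O2 were all below those labelled ShNC. YH overlapped both other groups, and its replicate 3 was far above its other 3 libraries. EGFR fell by 0.36 (SE 0.11) in H2O2 against ShNC (adjusted p = 0.0129), was 0.15 ± 0.11 in YH against H2O2 (0.285) and -0.21 ± 0.11 in YH against ShNC (0.162). The highest libraries of YH and of ShNC were those of high mitochondrial share. Without both, YH against ShNC was -0.23 and passed (adjusted p = 1.38e-05), as it did without YH replicate 3 alone (-0.33, 0.00938), and the fall in H2O2 was -0.27 and did not pass (0.0793) with the neighbours' shift removed.

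ERBB2 (ENSG00000141736, chromosome 17, 39687914 to 39730426, forward strand), the shared partner receptor, had 71.6, 68.0, 84.2 and 66.7 CPM in the libraries labelled YH, 88.5, 88.4, 83.2 and 90.1 CPM in those labelled H2O2, and 89.1, 90.4, 88.0 and 72.6 CPM in those labelled ShNC. YH was mostly lowest, but its replicate 3 overlapped H2O2, and ShNC replicate 4 was as low as the YH libraries. The log2 fold change of ERBB2 was -0.27 ± 0.08 in YH against H2O2 (adjusted p = 0.0168), -0.23 ± 0.08 in YH against ShNC (0.0501) and 0.04 ± 0.08 in H2O2 against ShNC (0.708). Without those same 2 libraries YH against ShNC was -0.38 and passed (adjusted p = 2.57e-09). It also passed without ShNC replicate 4 (-0.30, 0.00284) or YH replicate 3 alone (-0.30, 0.00437), with the neighbours' shift removed (-0.31, 0.00394), with DESeq2 (0.0365), with RLE scaling (0.0447) and without the filter on low counts (0.0423), while YH against H2O2 was lost without YH replicate 2 (0.0556) or 4 (0.0584).

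ERBB3 (ENSG00000065361, chromosome 12, 56076799 to 56103505, forward strand), the receptor of NRG1, was the least abundant of the 3 and had the largest fold changes of them in both comparisons with the H2O2 libraries. It had 9.15, 8.92, 9.89 and 9.01 CPM in the libraries labelled YH, 5.71, 5.49, 5.39 and 5.35 CPM in those labelled H2O2, and 7.58, 8.36, 8.75 and 9.06 CPM in those labelled ShNC. The libraries labelled H2O2 were all lowest, and YH overlapped ShNC. ERBB3 fell by 0.62 (SE 0.09) in H2O2 against ShNC (adjusted p = 4.44e-05), rose by 0.75 ± 0.09 in YH against H2O2 (8.43e-06) and was 0.13 ± 0.09 in YH against ShNC (0.299), a value that reached 0.25 and passed (0.0435) with the neighbours' shift removed. The epithelial markers CDH1, SLC34A1, PAX8 and EPCAM moved in the same directions in both comparisons with H2O2, whereas PAX2 and KRT18 rose in H2O2 against ShNC. The part of these markers in the ERBB3 values was not tested. Per length, EGFR made up 77.5% of receptor mRNA in YH, 73.4% in H2O2 and 77.6% in ShNC, ERBB2 19.6%, 24.8% and 20.1% in the same groups, and ERBB3 2.87%, 1.77% and 2.26%.

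The machinery that releases the ligands moved in both directions. Of 12 listed genes of ligand shedding 11 were measured, TIMP3 not being analysed here. In H2O2 against ShNC 7 rose and 3 fell, with a median log2 fold change of 0.59 against 0.00 over all genes, of which 23.9% rose and 22.6% fell. ADAM19, a metalloprotease that cuts neuregulins, averaged 15.4 ± 0.94 CPM in YH, 50.2 ± 2.09 in H2O2 and 15.5 ± 1.09 in ShNC (SD, n = 4 each). Its log2 fold change was 1.69 ± 0.08 in H2O2 against ShNC (adjusted p = 6.27e-11) and -1.71 ± 0.08 in YH against H2O2 (1.23e-10).

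FURIN, a proprotein convertase that activates these proteases, averaged 54.7 CPM in YH, 77.9 in H2O2 and 32.4 in ShNC, and rose by 1.26 ± 0.08 in H2O2 against ShNC (2.39e-09) and by 0.75 ± 0.08 in YH against ShNC (2.36e-06). ADAM15 fell by 1.05 (SE 0.08) in H2O2 against ShNC, and by 0.37 with the neighbours' shift removed, and ADAM10, a sheddase of EGF and BTC, fell by 0.54 (SE 0.06). ADAM17, the main sheddase of AREG and TGFA and named here outside the rule on names, averaged 72.4 CPM in YH, 75.8 in H2O2 and 67.1 in ShNC and rose by 0.17 ± 0.06 in H2O2 against ShNC (adjusted p = 0.0242). In YH against H2O2 3 of the 11 rose and 4 fell (median -0.10), beside 22.0% and 21.0% of all genes, and ADAM12, another metalloprotease, was lowest after ADAM19 at -1.28 ± 0.12. In YH against ShNC 2 rose and 3 fell (median 0.10), beside 17.4% and 15.1% of all genes, and with ShNC replicate 4 and YH replicate 3 left out 5 rose and 4 fell.

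Among 14 adaptors and regulators of receptor turnover, 5 rose and 9 did not pass in H2O2 against ShNC, with a median of 0.12, a smaller share called than the 46.6% of all genes. With ShNC replicate 4 and YH replicate 3 left out 9 rose and 2 fell. GAB2, a docking protein downstream of the receptors, rose by 0.83 ± 0.09 in H2O2 against ShNC (adjusted p = 2.76e-06) and by 0.95 ± 0.09 in YH against ShNC (1.69e-06). RNF41, the ubiquitin ligase that limits ERBB3 protein, rose by 0.40 ± 0.06 in YH against H2O2 (4.64e-05), where 1 of the 14 rose and 2 fell (median 0.03), beside 43.0% of all genes called, or 3 and 4 without those libraries. In YH against ShNC 6 rose and 8 did not pass (median 0.16, with 17.4% of all genes higher), while 9 rose and 1 fell without them.

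Transcripts that ERK signalling is known to raise were mostly higher in both exposed groups. Of 10 ERK output genes 9 rose and 1 did not pass in H2O2 against ShNC, with a median of 1.02 against 0.00 over all genes, of which 23.9% rose. All 10 rose in YH against ShNC (median 1.16), beside 17.4% of all genes. DUSP4, which is among them, averaged 0.0897 CPM in ShNC, with 14 counts summed over that group. That level is at the floor of detection, so the size of its rise is imprecise, also where it is counted among the feedback inhibitors below. In YH against H2O2 4 rose and 3 fell (median 0.16), or 2 and 4 with the neighbours' shift removed. CCND1 (cyclin D1) averaged 29.9 ± 3.06 CPM in YH, 124 ± 3.81 in H2O2 and 19.7 ± 0.40 in ShNC, a log2 fold change of 2.65 ± 0.07 in H2O2 against ShNC (adjusted p = 4.41e-13) and -2.05 ± 0.07 in YH against H2O2 (1.37e-11). PHLDA1, an ERK-induced regulator of survival, averaged 400.2 CPM in YH, 675 in H2O2 and 154 in ShNC. ETV4, an ETS transcription factor, averaged 35.8, 58.02 and 13.7 CPM in the same groups and rose by 1.39 ± 0.08 in YH against ShNC (1.13e-08).

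Most of these output genes stood higher in the libraries labelled H2O2 than in those labelled ShNC. In that comparison TGFA, HBEGF and NRG1 rose, and AREG, EGFR and ERBB3 fell. ERK activity was not measured, and the part of these ligands and receptors in the output genes was not tested. EPHA2 was 0.43 ± 0.09 higher in YH against H2O2, as was DUSP6, a phosphatase of ERK, by 0.79 ± 0.11 (adjusted p = 3.38e-05). DUSP6 is uncertain because 40.5% of its exon bases overlap another gene and the strand setting of the counts is not stated.

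**Figure D5:**
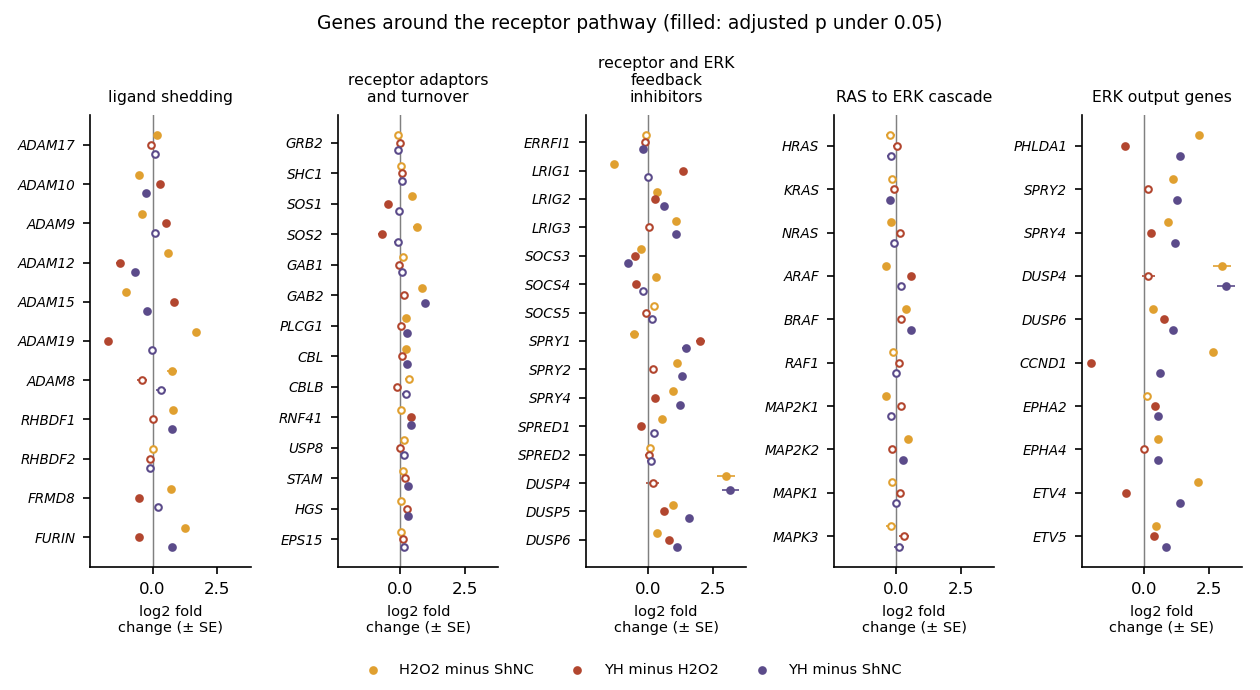
Log2 fold change with SE of each tested gene of the pathway lists, filled where the adjusted p was below 0.05, for YH against H2O2, YH against ShNC and H2O2 against ShNC. The ERK output genes lie mostly right of 0 in YH against ShNC (median 1.16) and in H2O2 against ShNC (median 1.02), and the genes of the RAS to ERK cascade lie close to 0.

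Of 15 feedback inhibitors of the receptors and of ERK, which include SPRY2, SPRY4, DUSP4 and DUSP6 of the output list, 9 rose and 3 fell in H2O2 against ShNC (median 0.34), 6 rose and 3 fell in YH against H2O2 (0.16), and 8 rose and 2 fell in YH against ShNC (0.61). Over all genes 23.9% rose and 22.6% fell in the first comparison, 22.0% and 21.0% in the second, and 17.4% and 15.1% in YH against ShNC. SPRY2, an inhibitor of RAS signalling, averaged 115 CPM in YH, 102 in H2O2 and 47.3 in ShNC and rose by 1.11 ± 0.08 in H2O2 against ShNC (adjusted p = 2.21e-08). LRIG1, a membrane protein that promotes loss of ERBB receptors, averaged 9.52 ± 1.03 CPM in YH, 3.79 ± 0.49 in H2O2 and 9.54 ± 0.85 in ShNC. It was -1.33 ± 0.12 in H2O2 against ShNC (2.43e-07) and 1.32 ± 0.12 in YH against H2O2 (3.8e-07), while its relative LRIG3 rose by 1.06 ± 0.07 in H2O2 against ShNC.

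SPRY1, of the same family as SPRY2, averaged 12.2 ± 2.31 CPM in YH, 3.04 ± 0.44 in H2O2 and 4.46 ± 0.88 in ShNC, and rose by 2.00 ± 0.17 in YH against H2O2 (1.38e-07). Its fall of 0.55 in H2O2 against ShNC (adjusted p = 0.0143) was lost with the neighbours' shift removed (0.0654) and without H2O2 replicate 3. DUSP5, a nuclear ERK phosphatase, averaged 476 CPM in YH, 311 in H2O2 and 159 in ShNC, and rose by 1.58 ± 0.07 in YH against ShNC (5.29e-10). SOCS3, a cytokine-induced inhibitor, fell by 0.78 (SE 0.11) in YH against ShNC.

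The 10 kinases and GTPases of the cascade from RAS to ERK had small changes: 2 rose and 3 fell in H2O2 against ShNC (median -0.19), 1 rose and 9 did not pass in YH against H2O2 (0.15), and 2 rose and 1 fell in YH against ShNC (-0.01), beside 46.6%, 43.0% and 32.5% of all genes called. With ShNC replicate 4 and YH replicate 3 left out these counts were 2 and 5, 5 and 1, and 2 and 3. BRAF rose by 0.38 ± 0.08 in H2O2 against ShNC (adjusted p = 0.000726) and by 0.57 ± 0.08 in YH against ShNC (3.96e-05). ARAF fell by 0.39 (SE 0.11) in H2O2 against ShNC (0.0108) and rose by 0.55 ± 0.11 in YH against H2O2 (0.00102). MAP2K2 rose by 0.45 ± 0.09 in H2O2 against ShNC (0.00102), a call that ended at -0.02 (0.777) with the neighbours' shift removed.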

How the data were processed

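Polyadenylated RNA was counted in 12 libraries of HK-2 cells, 4 per group, grouped by title. The authors deposited raw read counts per gene and library, neither scaled nor pooled. HISAT2, featureCounts, Subread, DESeq2 and GRCh38 (hg38) are the tools and build per the submitters' processing notes, which give neither versions nor roles. The strand setting is not given in the sources consulted, so reads of overlapping genes could not be told apart. Symbols matched 40555 of 40649 identifiers, and the GENCODE annotation gave 85 more. Counts of replicates differed by 2.96 to 6.99 in chi-square per degree of freedom in pairs without ShNC replicate 4 and YH replicate 3. Pairs with ShNC replicate 4 differed by 156 to 181 and those with YH replicate 3 by 109 to 133.

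Counts were tested with edgeR 4.0.16 (R 4.3.3): filterByExpr (19268 genes kept), TMM scaling, and a robust quasi-likelihood fit with 1 mean per group over all 12 libraries (9 residual degrees of freedom). A gene was called at an adjusted p (Benjamini-Hochberg, over all tested genes) below 0.05. Adjusted p-values are from edgeR throughout, values after ± are SE for fold changes and SD for levels, and the floor of 3 counts covers counting error only. Alternatives were other scalings, no filter, DESeq2 1.42.0, a replicate block, fits of 2 groups alone, removing the median shift of 50 neighbouring genes, and leaving libraries out.

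The members, gene lists and tests were chosen with earlier results of these data known. Named are YAP1, the family, in each list and comparison up to 2 called genes with the largest rise and 2 with the largest fall at 1 CPM or more, the 3 genes nearest in pattern to 5 members, and tested neighbours on chromosome 4 within 500 kb. Not all of these are given in the text.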

Additional observations from a re-analysis of the deposited data

Results flagged for a closer look

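Over 27 groups of 4 libraries (9 genes, 3 groups), 2 had a library far from the other 3, by a gap above Dixon's 95% critical value for 4 samples, which chance gives in about 1 in 20 groups. EGFR was at 435 CPM in YH replicate 3, where the other libraries labelled YH lay between 315 and 329 CPM, a gap of 0.884 of the range. ERBB2 was at 72.6 CPM in ShNC replicate 4, where the other libraries labelled ShNC lay between 88.0 and 90.4 CPM, a gap of 0.867 of the range. These are the libraries of high mitochondrial share (11.3% in YH replicate 3 and 13.9% in ShNC replicate 4), whose part in these values was not tested.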

How the results depend on the processing

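Over 20 alternatives, 12 of them leaving out 1 library, no value of the 9 genes, EGF, NRG3 or YAP1 changed direction past the threshold. AREG stayed called in every alternative, at -3.64 to -3.45 in H2O2 against ShNC, 2.41 to 2.50 in YH against H2O2 and -1.17 to -0.98 in YH against ShNC. The number of the 9 genes lower in YH against ShNC, 1 as reported, was 2 with DESeq2, with the RLE scaling, without the filter and with the neighbours' shift removed, 3 with ShNC replicate 4 and YH replicate 3 both left out, and 1 to 3 with 1 library left out. The number lower in YH against H2O2, 2 as reported, was 1 to 2 with 1 library left out. Leaving out 1 library gave 8067 to 10038 genes called in H2O2 against ShNC (8971 as reported), 7196 to 9684 in YH against H2O2 (8288) and 5346 to 7298 in YH against ShNC (6265). No pairing of the libraries by replicate number was seen: 3 of 12 same-numbered pairs correlated above 0.1. The check cannot exclude pairing, because it included ShNC replicate 4 and YH replicate 3, which differed most from their groups. Between YH and ShNC the correlations were 0.45, 0.30, -0.49 and -0.47 for replicates 1 to 4. In 6 of 24 comparisons of a library with another group, the best match had the library's own number. With a replicate block 8536, 7798 and 5731 genes were called in these comparisons, and no call of the 9 genes changed. Calls of TGFA, EGFR, NRG1, ERBB2 and ERBB3 that changed are given beside them, and their cause was not tested. At these depths the genes with under about 25 counts (EPGN, NRG2, NRG4 and ERBB4) could not be compared with any precision.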

Other observations

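The genes closest to AREG in pattern over the 12 libraries, by the root mean square difference of gene-centred log2 CPM among 11527 genes of at least 5 CPM, were ELOVL2 (0.20), an enzyme that elongates long polyunsaturated fatty acids, CRTAC1 (0.23) and NMNAT3 (0.23), an enzyme of mitochondrial NAD synthesis. AREG itself varied by 1.49 around its mean on that scale. EREG varied by 0.12 only, and its nearest genes were ACTR3, CGGBP1 and VPS13A, each 0.06 away. For TGFA, which varied by 0.23, they were C19orf12, CDCA4 and MPLKIP (0.04 to 0.06), for HBEGF (0.20) CLCN4, TCEAL1 and SNX25 (0.06 to 0.07), and for EGFR (0.21) TPX2, PPT1 and CSTF1 (0.06). The distances are descriptions over libraries that share 3 groups.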
